A study of Caenorhabditis elegans with 43 samples.

Results

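The genes described here encode sperm proteins of the nematode Caenorhabditis elegans, and the measurement is the number of small RNA reads counted on them. They were chosen by name and type from the table of small RNA counts, as every protein-coding gene or pseudogene whose name starts with msp-, msd-, ssp-, ssq- or nspd-. This gave 67 of 46904 annotated features: 35 msp, 4 msd, 12 ssp, 4 ssq and 12 nspd genes, of which 61 were protein-coding and 6 were pseudogenes. On the chromosomes, 37 lay on IV, 17 on II, 8 on I, 3 on V and 2 on III. Of the genes on IV, 16 lay within the smaller of the clusters of piRNA genes, between 4.5 and 7 Mb, and none of the 67 overlapped an annotated piRNA.

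The study asked how piRNAs of the male germline are transcribed, and sequenced small RNA from whole hermaphrodites grown at 20°C on Escherichia coli OP50. WT spe. was the N2 strain at L4, 48 hr after hatching, when the germline makes sperm (3 libraries). The group snpc-1.3(-) spe. carried the allele snpc-1.3(xk27), a loss of function of snpc-1.3, at the same stage (2 libraries). WT oog. was N2 at the gravid adult stage, 72 hr after hatching, when the germline makes oocytes (3 libraries). By its genotype label, the group snpc-1.3(2xtbs) oog. carried snpc-1.3(xk36) at that stage (3 libraries). In this allele 2 sites for TRA-1 in the promoter of snpc-1.3 are mutated, and the label also names a 3xflag tag. The paper lists a different, untagged allele as snpc-1.3(2xtbs) and mentions no tag for its small RNA libraries, so the allele is uncertain. SNPC-1.3 is a subunit of the complex that transcribes male piRNAs, and TRA-1 is the master regulator of female fate, which represses male genes. RNA was treated with a polyphosphatase, which lets secondary small RNAs with a 5′ triphosphate enter the libraries. A legend in the paper, to a supplement of the figure on TRA-1, names 3 biological replicates. Neither it nor the labels say whether libraries came from separate cultures, so p-values measure the spread between these libraries. Each time point was sequenced on its own flow cell, according to the methods, so stage and flow cell cannot be told apart.

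Nematode sperm crawl rather than swim, and the major sperm protein (MSP) encoded by the msp genes assembles into the filaments that push the pseudopod forward. MSP is also released from sperm as a signal that starts oocyte maturation and ovulation. The MSD proteins carry an MSP domain, SSP and SSQ are further families of sperm-specific proteins, and NSPD are short nematode-specific peptides. Transcripts of spermatogenesis genes are known targets of small RNA pathways in this species: the Argonautes ALG-3 and ALG-4 act with primary small RNAs in the male germline, RNA-dependent RNA polymerases then make secondary small RNAs antisense to the transcript, and the Argonaute CSR-1 binds secondary small RNAs of genes expressed in the germline. The strand setting of the counting was not given in the sources used here, so sense and antisense reads cannot be told apart in these values.

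The msp and msd families, and some genes of the others, are near-identical copies, which limits how a short read can be assigned to them. To show this, the first 60 bases of the coding sequence are printed for msp genes with many counts and msp genes called below, read from the RefSeq genome (WBcel235) with the coding frame of the Ensembl annotation, with capitals where a base differs from msp-53.
msp-53: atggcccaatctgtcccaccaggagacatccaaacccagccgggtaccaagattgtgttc
msp-59: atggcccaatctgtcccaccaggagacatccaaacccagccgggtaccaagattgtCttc
msp-31: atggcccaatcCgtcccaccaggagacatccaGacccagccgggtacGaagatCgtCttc
msp-57: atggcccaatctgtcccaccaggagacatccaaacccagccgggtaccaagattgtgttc
msp-78: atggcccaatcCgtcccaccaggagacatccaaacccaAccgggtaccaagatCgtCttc
The start of msp-57 is the same as that of msp-53 over these bases, and over the whole coding sequence of 384 bases the identity to msp-53 was 98.7% for msp-59, 98.2% for msp-57, 94.0% for msp-31 and 93.5% for msp-78. msp-53 lies at chrIV:5064643-5065153 on the minus strand and msp-57 at chrIV:5062534-5062995 on the plus strand. Among the 28 msp genes with a coding sequence of this length, pairs were 86.2% to 99.5% identical (median 92.5%). One stretch of 30 bases, atcactgttgagtggaccaacaccccggat, stands in 20 of the 35 msp genes and at 24 places in the genome.

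The 4 msd genes are shown next because a pair of them cannot be separated by sequence. Capitals mark bases that differ from msd-1.
msd-1: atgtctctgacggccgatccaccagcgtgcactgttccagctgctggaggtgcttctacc
msd-2: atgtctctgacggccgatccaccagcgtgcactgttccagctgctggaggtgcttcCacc
msd-3: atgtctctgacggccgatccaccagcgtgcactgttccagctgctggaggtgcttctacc
msd-4: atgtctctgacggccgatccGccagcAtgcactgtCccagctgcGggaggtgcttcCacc
The coding sequences of msd-1 and msd-3 were 100% identical over 330 bases, and those of msd-2 and msd-4 were 98.8% and 92.7% identical to msd-1. msd-1 lies at chrIV:10022263-10022705 and msd-3 at chrIV:10035638-10035967, so their counts cannot be taken as separate measurements.

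The nspd genes with the most counts are printed with capitals where they differ from nspd-6.
nspd-6: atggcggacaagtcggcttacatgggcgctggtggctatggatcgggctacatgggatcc
nspd-3: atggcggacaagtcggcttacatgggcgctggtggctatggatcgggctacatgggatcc
nspd-5: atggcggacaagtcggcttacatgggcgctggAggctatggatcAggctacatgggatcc
nspd-4: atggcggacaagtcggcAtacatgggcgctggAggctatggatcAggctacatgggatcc
Over 216 coding bases, nspd-3 was 98.6% identical to nspd-6, nspd-5 was 92.1% identical and nspd-4 was 91.7% identical. nspd-6 lies at chrIV:5165420-5165777 and nspd-5 at chrII:4860064-4860411, both on the minus strand. The ssp genes are more diverse, with a median of 69.8% between ssp genes of equal coding length, and ssp-11 and ssp-10 are shown as a close pair, with capitals where ssp-10 differs, beside ssp-35, a gene with no close copy.
ssp-11: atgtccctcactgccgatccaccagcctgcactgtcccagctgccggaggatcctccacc
ssp-10: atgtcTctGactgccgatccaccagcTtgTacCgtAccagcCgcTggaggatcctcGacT
ssp-35: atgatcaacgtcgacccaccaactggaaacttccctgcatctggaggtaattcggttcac
Of the ssq genes, ssq-3 and ssq-4 share these 60 bases, whereas ssq-2 differs from ssq-3 at 14 of them.
ssq-3: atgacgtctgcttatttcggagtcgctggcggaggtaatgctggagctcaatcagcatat
ssq-4: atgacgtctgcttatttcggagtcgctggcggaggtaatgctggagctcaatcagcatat
ssq-2: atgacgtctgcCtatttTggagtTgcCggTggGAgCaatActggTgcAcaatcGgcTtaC

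Of all stretches of 22 bases in a gene, a median of 15.5% occurred at 1 place in the genome in the msp family and 6.74% in the msd family, against 83.7% for ssp, 62.5% for ssq and 84.8% for nspd. In the msp family a median of 57.02% of stretches occurred at more than 5 places. The authors' aligner reported a limited number of places for each read and the counter kept reads with several places, so one read could add a count to several copies. Tallies of genes below thus do not count separate measurements, and a sum over a family can count 1 read more than once. Counts of single msp and msd genes, and of nspd-3, nspd-4, nspd-5 and nspd-6, are therefore uncertain between copies. The same holds for ssp-9 (10.4% unique stretches), ssp-11 (11.3%), nspd-11 (19.1%), ssq-4 (38.5%) and ssq-3 (39.1%). In addition, msp-31, msp-33, msp-45 and nspd-11 overlap another annotated gene.

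Libraries held 4336397 to 22346249 counts on annotated features. Protein-coding genes took 1.45% to 5.23% of them, and the 67 sperm protein genes together took 167 to 3018 counts per library. miRNAs took 76.5% to 79.6% in WT spe., 81.7% and 81.0% in snpc-1.3(-) spe., 57.1% to 62.1% in WT oog. and 63.7% to 70.3% in snpc-1.3(2xtbs) oog. Values scaled to library totals thus depend on a miRNA share that differed between groups. At these depths 3 counts correspond to 0.134 to 0.692 CPM (counts scaled to a total of 1000000 on all features of a library), which is taken as the floor below which a level is not resolved. A count was found in all 11 libraries for 34 of the 67 genes, and 6 genes had under 10 counts in every library. Small RNA counts on snpc-1.3 itself were 0 to 6 per library and do not measure its mRNA, so they are no check of the genotypes.

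Summed over the 67 genes, WT spe. held 183, 216 and 193 CPM (198 ± 16.8, SD, n = 3) and WT oog. held 74.1, 83.5 and 71.7 CPM (76.4 ± 6.26, n = 3). The WT groups did not overlap. The 2 snpc-1.3(-) spe. libraries held 24.8 and 109 CPM, both below every WT spe. library and 4.41-fold apart from each other. The snpc-1.3(2xtbs) oog. libraries held 135, 106 and 66.9 CPM (103 ± 34.2, n = 3), of which the first and second lay above every WT oog. library and the third below. Whole worms were sequenced, so fewer cells of a type and less small RNA per cell cannot be told apart.

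**Figure D1:**
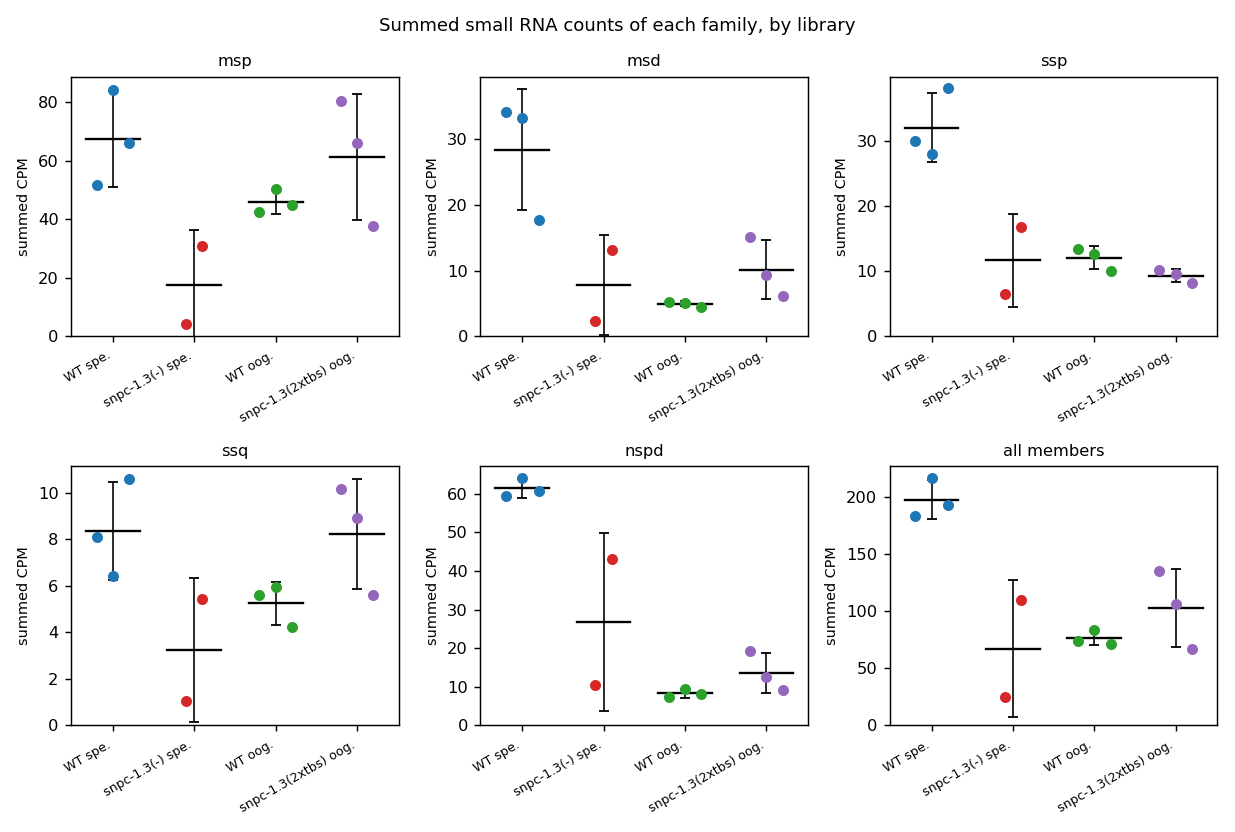
Summed small RNA level (CPM) of each family and of all 67 sperm protein genes, by group; points are libraries, and horizontal marks with bars give the mean and SD of a group, with bars that would pass below 0 ending at the axis. For all 67 genes the WT spe. points lie between 183 and 216 CPM, the WT oog. points between 71.7 and 83.5 CPM, and the snpc-1.3(-) spe. points at 24.8 and 109 CPM.

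The families did not share one level. Per kb of annotated gene, the mean level in WT spe. was 17.16 ± 5.572 CPM per kb for msd and 16.2 ± 0.624 for nspd, against 5.27 ± 0.879 for ssp, 4.562 ± 1.101 for msp and 1.67 ± 0.423 for ssq (SD, n = 3). The msd and nspd genes thus had the most counts per kb in WT spe., and their levels lay within the spread of each other. In WT oog. the order changed: msp stood at 3.11 ± 0.273 CPM per kb, msd at 2.99 ± 0.25, nspd at 2.18 ± 0.287, ssp at 1.98 ± 0.292 and ssq at 1.05 ± 0.185. There msp and msd differed by less than their spread, as did nspd and ssp. A read could be counted on several copies, and the families differ in their share of repeated stretches. Levels per kb were not corrected for this, so the order of the families may not be that of their small RNAs.

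The comparison of WT spe. with WT oog. asks how small RNAs on these genes differ between the time when the germline makes sperm and the time when it makes oocytes. They were higher during spermatogenesis on all 7 nspd and all 4 msd genes tested, on 7 of 8 ssp genes, on 11 of 32 msp genes and on 1 of 4 ssq genes, where 30.2% of all features were called higher. The shares of msp (34.4%) and ssq (25%) were near that background. Copies within a family can share reads, so these tallies are not numbers of separate measurements. The summed level was 7.40 times as high in WT spe. for nspd and 5.74 times for msd, but 2.67 times for ssp, 1.59 times for ssq and 1.47 times for msp. Counts were fitted with edgeR's quasi-likelihood test over all 16968 features that passed its filter on low counts, with TMM scaling, and a feature was called at an adjusted p (Benjamini-Hochberg over all 16968) of at most 0.05 with a log2 fold change of at least 0.26 in size. The filter passed 55 of the 67 genes, and left out msp-37, msp-52, msp-142, ssp-31, ssp-33, ssp-36, ssp-37 and nspd-8 to nspd-12.

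Of the 55 genes tested, 30 were called higher in WT spe. (54.5%), where 59.3% of all features were called, 30.2% higher and 29.1% lower. None was called lower by edgeR, DESeq2 or limma, and none reached an unadjusted p under 0.05 in that direction by edgeR. The median log2 fold change of the 55 genes was 1.45, against −0.17 over all features and 0.07 over protein-coding genes and pseudogenes. Without TMM the median of all features moved to −0.77, and with counts scaled to miRNA totals to −1.17, with medians of 0.82 and 0.43 for the 55 genes. In CPM, every WT spe. library lay above every WT oog. library for 29 of the 55, where this held for 24.5% of all features; the reverse held for 0 of the 55 and 45.3% of all features.

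**Figure D2:**
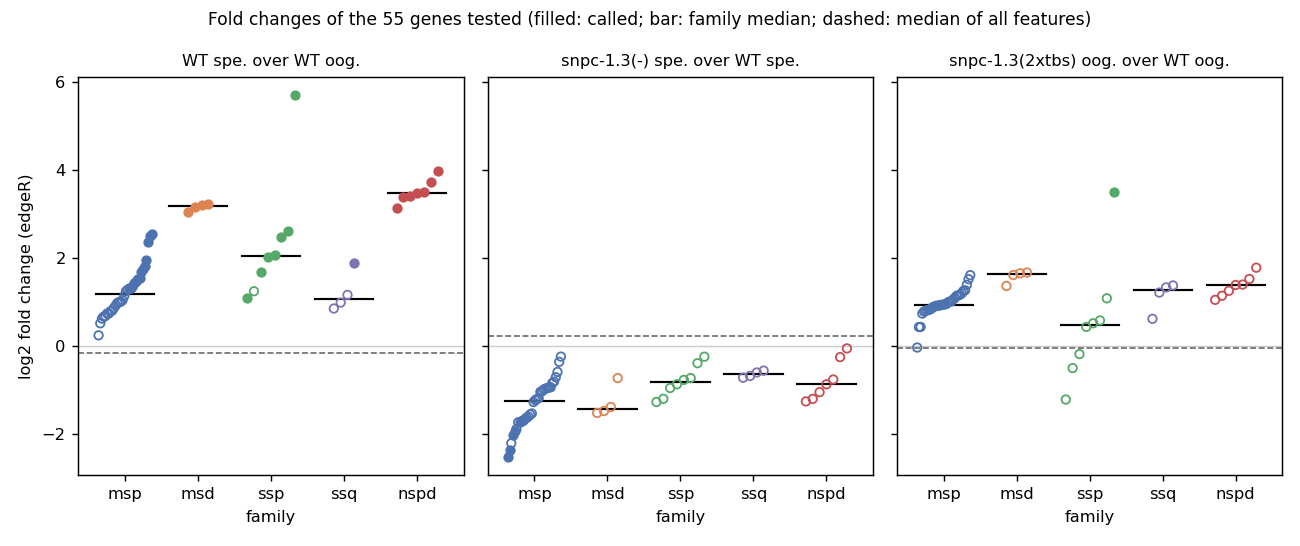
Log2 fold changes (edgeR) of the 55 tested sperm protein genes in each of the 3 comparisons, by family; points are genes, filled where called, black bars are family medians and the dashed line is the median of all features tested. With TMM scaling the points lie above 0 for all 55 genes between the WT stages (under another scaling 16 of them, all uncalled, fall below 0), below 0 for all 55 in snpc-1.3(-) spe. over WT spe. (9 turn with a library left out), and above 0 for 51 in snpc-1.3(2xtbs) oog. over WT oog.

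The tested nspd genes, for short peptides, showed the clearest separation. nspd-6 had 71, 147 and 57 counts in WT spe. and 10, 22 and 12 in WT oog., or 13.2 ± 0.687 against 1.27 ± 0.505 CPM (SD, n = 3 each). The groups did not overlap, and the log2 fold change was 3.97 (SE 0.50, edgeR adjusted p = 4.5e-06). nspd-3, nspd-5 and nspd-4 rose by 3.72, 3.50 and 3.40 on the log2 scale, also without overlap of their libraries in CPM. For nspd-5 these were 68, 130 and 55 counts against 17, 21 and 18. The 7 nspd genes tested ranged from 3.12 to 3.97, and the other genes of the family had too few counts to be tested.

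The msd genes, for proteins with an MSP domain, moved over a narrow range, from 3.04 to 3.23 on the log2 scale. msd-1 had 53, 100 and 23 counts in WT spe. and 15, 18 and 13 in WT oog., or 8.02 ± 2.35 against 1.34 ± 0.185 CPM. All WT spe. libraries were higher, with a log2 fold change of 3.23 (SE 0.54, edgeR adjusted p = 6.8e-05). The identical msd-3 gave 48, 95 and 22 counts against 15, 17 and 12 and cannot be taken as a separate measurement.

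Among the ssp genes, ssp-35 on chromosome V had 17, 26 and 8 counts in WT spe. and 0, 1 and 1 in WT oog. It had at most a single count in each WT oog. library, so its level there is under the floor. Pooled over libraries, 51 counts against 2 gave a ratio of 42.5 (95% counting interval 11.2 to 360.4), and it was called higher by edgeR (adjusted p = 3.2e-05). ssp-16 had 52, 96 and 33 counts against 35, 34 and 15, with a log2 fold change of 2.46 (SE 0.37, edgeR adjusted p = 2.2e-05) and no overlap in CPM. ssp-32 was called at an adjusted p of 0.0488 with a log2 fold change of 1.08, but its libraries overlapped, with 24, 23 and 34 counts in WT spe. and 25, 30 and 46 in WT oog. The highest level in CPM was that of the third WT spe. library.

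The ssq genes stood closer between stages. ssq-2 was called higher, with 19, 19 and 10 counts in WT spe. and 17, 10 and 7 in WT oog. (log2 fold change 1.89, SE 0.49, edgeR adjusted p = 0.0032). ssq-4 had 6, 17 and 17 counts against 15, 22 and 16, which overlapped in CPM and did not pass (0.98, adjusted p = 0.094). ssq-3 and ssq-1 did not pass either.

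The msp genes, which encode the filament protein itself, were divided. msp-57 had 21, 42 and 15 counts in WT spe. and 10, 16 and 12 in WT oog., or 3.70 ± 0.251 against 1.0998 ± 0.222 CPM, and was called higher (2.35, SE 0.43, edgeR adjusted p = 0.00017). Its neighbour on chromosome IV, msp-53, had 9, 48 and 12 counts against 23, 47 and 34, or 2.96 ± 1.48 against 3.00 ± 0.93 CPM. These overlapped, and the log2 fold change of 0.67 did not pass (adjusted p = 0.26); it was −0.39 when counts were scaled to miRNA totals. The coding sequences of this pair are 98.2% identical, and a read could be counted on both. msp-31 had 20, 72 and 17 counts against 22, 30 and 22 and passed (1.82, SE 0.60, edgeR adjusted p = 0.015). msp-59, with 11, 45 and 14 counts against 25, 43 and 30, did not.

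**Figure D3:**
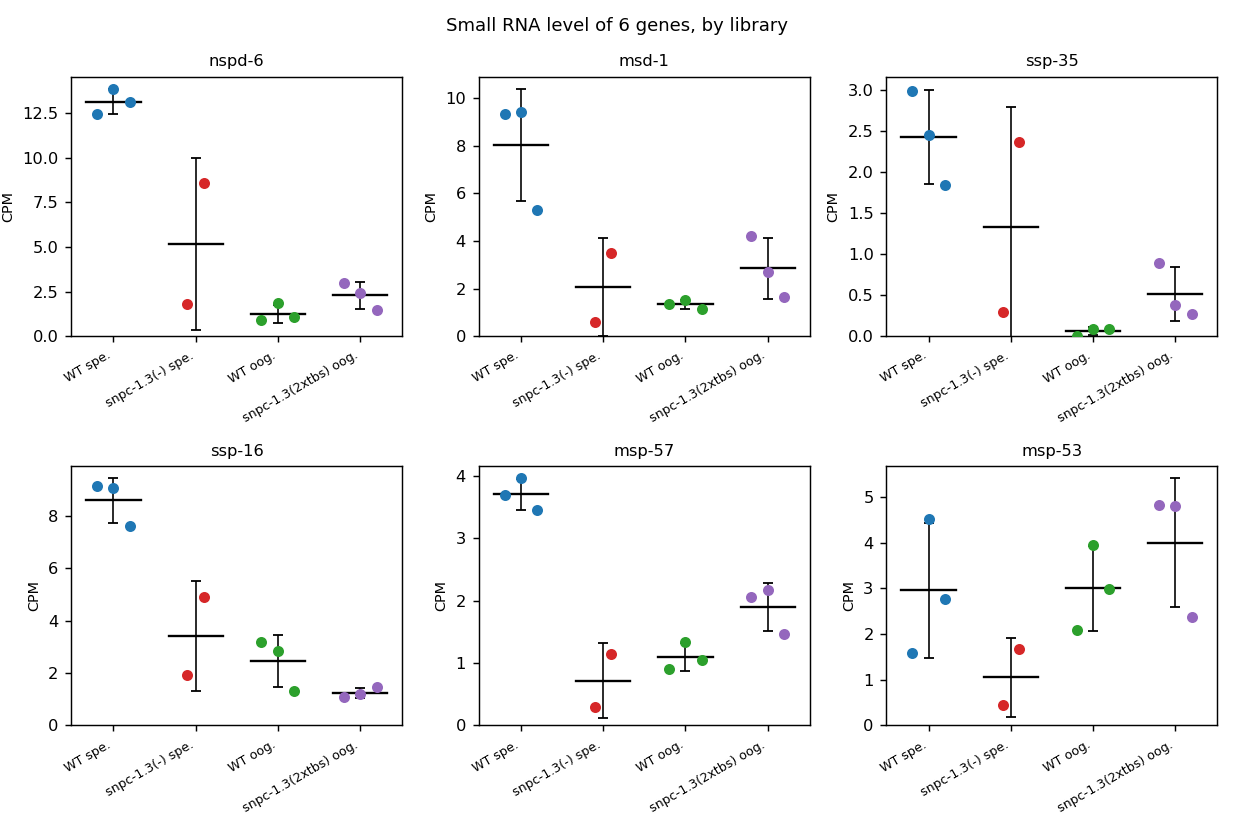
Small RNA level (CPM) in each library for nspd-6, msd-1, ssp-35, ssp-16, msp-57 and msp-53; points are libraries, and horizontal marks with bars give the mean and SD of a group, with bars that would pass below 0 ending at the axis. nspd-6 has a mean of 13.2 ± 0.687 CPM at spermatogenesis and 1.27 ± 0.505 CPM at oogenesis in WT, whereas msp-53 has 2.96 ± 1.48 and 3.00 ± 0.93 CPM.

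Genes that a read can identify and genes that it cannot were both called. Of the 9 tested genes with at least 80% of their stretches of 22 bases at 1 genome place, 7 were called higher (median log2 fold change 2.46), and of the other 46, 23 were (median 1.33). msd-1, with 0% unique stretches, and ssp-16, with 95.9%, were both called. The families hold unequal parts of these sets, and no test was made between the sets.

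**Figure D4:**
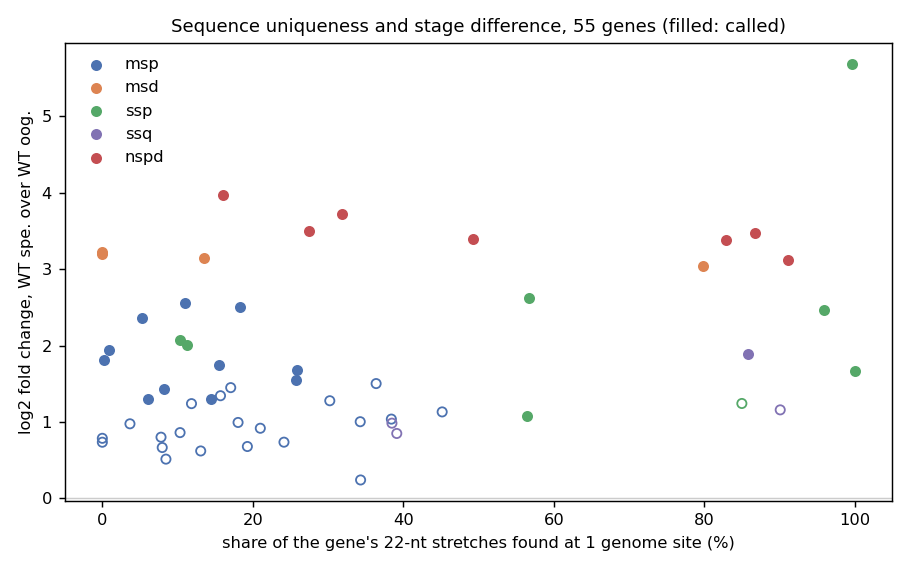
Log2 fold change between the WT stages (spe. over oog.) against the share of a gene's stretches of 22 bases that occur at 1 genome place, for the 55 tested genes, coloured by family and filled where called. Called nspd genes lie above 3 on the log2 scale over the whole range of uniqueness they cover, while the msp genes, with a family median of 15.5% unique stretches, lie lower.

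Lists of other genes were read from the same fit. There, 15 of 22 tested genes of other sperm functions (spe and fer genes, gsp-3, gsp-4 and others) were called higher in WT spe. and 0 lower, with a median log2 fold change of 2.14. gsp-3, for a sperm phosphatase, had 23, 54 and 19 counts against 12, 7 and 8. Of 15 tested oocyte genes, 1 (egg-1) was higher and 7 were lower (median −1.17), among them puf-3, for an RNA-binding protein of oocytes, with 3, 6 and 3 counts against 41, 38 and 43. Collagen genes of the cuticle, which are not germline genes, were also higher in 16 of 26 and lower in 1 (median 2.2995), with summed levels of 104 CPM and 63.1 CPM The part of these somatic genes in the result on the sperm genes was not tested. Among 15 tested genes of small RNA pathways, 3 were higher and 2 lower: alg-4 had 36, 48 and 23 counts against 10, 14 and 6 and alg-3 had 39, 85 and 39 against 11, 20 and 9, both called higher, whereas csr-1 had 37, 76 and 39 against 82, 107 and 110 and did not pass (0.34, edgeR adjusted p = 0.32).

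The comparison of snpc-1.3(-) spe. with WT spe. asks what happens to these small RNAs when the male piRNA transcription factor is lost. All 55 fitted differences were negative (with a library left out 9 of them turned positive, among them nspd-4, nspd-5, ssq-3 and ssp-35, none of which was called) and 5 msp genes passed as lower, msp-57, msp-55, msp-79, msp-78 and msp-74, while no msd, ssp, ssq or nspd gene passed. The level of the decrease differed strongly between the libraries of the mutant. Relative to the WT spe. mean, the summed level was 12.6% in snpc-1.3(-) replicate 1 and 55.3% in replicate 2. By family the 2 libraries stood at 6.38% and 45.9% for msp, 8.37% and 46.4% for msd, 12.4% and 65.0% for ssq, 17.18% and 70.2% for nspd, and 20.4% and 52.1% for ssp.

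The 5 genes called lower were 9.09% of the 55 tested, below the 17.5% of all features called lower (18.6% were called higher and 36.1% either way), but above the 2.06% of protein-coding genes and pseudogenes called lower. At an unadjusted p under 0.05 there were 17, all lower. At that threshold 3292 of all 16968 features, and 269 of 6597 protein-coding genes and pseudogenes, were lower. The median log2 fold change was −1.04, against 0.23 over all features and 0.08 over protein-coding genes and pseudogenes. For 38 of the 55 both mutant libraries lay below every WT spe. library, where this held for 31.7% of all features, and for 0 of the 55 both lay above, where this held for 19.7%.

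msp-57 had 2 and 13 counts in the mutant and 21, 42 and 15 in WT spe., with both mutant libraries lower in CPM (log2 fold change −1.72, SE 0.53, edgeR adjusted p = 0.015). msp-55 had 0 and 9 counts against 16, 30 and 11 (−2.01, SE 0.72, edgeR adjusted p = 0.035). For msp-79 these were 0 and 11 against 13, 31 and 20 (−1.93, SE 0.70, edgeR adjusted p = 0.037). In each of these the replicate 1 library was at 0 to 2 counts and the replicate 2 library lay between it and WT spe. msp-78 and msp-74, each with 0 and 3 counts in the mutant, had 7, 12 and 6 and 8, 14 and 6 counts in WT spe. Their pooled ratios were 0.137 (95% counting interval 0.0264 to 0.448) and 0.122 (0.0237 to 0.395), with edgeR adjusted p of 0.037 and 0.041.

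Genes with more counts did not pass. nspd-6 had 12 and 98 counts in the mutant against 71, 147 and 57, with a fitted log2 fold change of −0.76 (adjusted p = 0.28). nspd-4 had 23 and 105 counts against 46, 115 and 43, with overlap in CPM and a fitted value of −0.06. msd-1 had 4 and 40 counts against 53, 100 and 23 (−1.39, adjusted p = 0.078). In these genes too the replicate 1 library was far below the others, and replicate 2 lay below every WT spe. library for nspd-6 and msd-1 and among them for nspd-4.

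Over the 67 genes, replicate 1 lay below replicate 2 for 62, below every WT spe. library for 56 and without a count for 29. Replicate 2 lay below every WT spe. library for 42 and was without a count for 2. The same shares over all features were not computed for single libraries, so these counts only describe the spread between the libraries. Without replicate 1 no gene passed (1 at an unadjusted p under 0.05, median −0.39), and without replicate 2 there were 29 (median −3.21), where the lone remaining library is assumed to vary like the other groups. Without WT spe. replicate 1, 2 or 3 the count was 2, 0 or 8, so none of the 5 genes passed in every fit that left out a library. DESeq2 called 17 and limma 2, and scaling to library totals called 21. The share of all features called in each of these fits is not set beside these numbers, so they show only how the count depends on the setting. The summed level was lower in both mutant libraries, and its size was not settled by these 2.

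**Figure D5:**
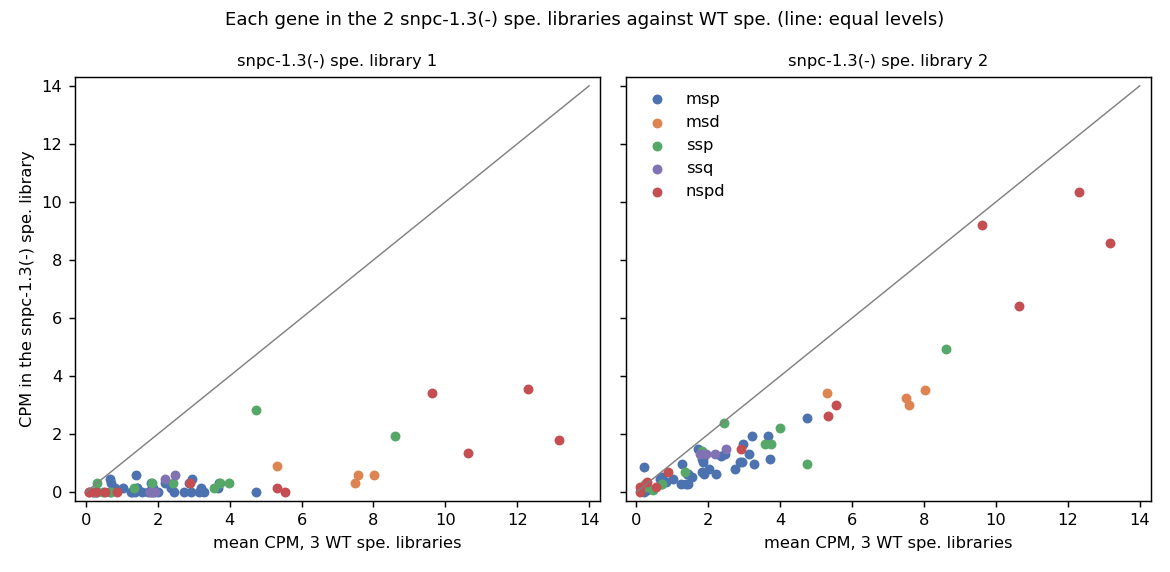
Level (CPM) of each of the 67 sperm protein genes in either snpc-1.3(-) spe. library against its mean over the 3 WT spe. libraries, coloured by family; the line marks equal levels. In replicate 1, where 29 genes had no count, points lie along the bottom of the plot, and in replicate 2 most lie below the line but nearer to it.

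Other sperm genes also differed between these libraries, at 32.9% and 75.8% of the WT spe. mean. Oocyte genes stood at 94.6% and 114%. Collagen genes stood at 75.7% and 70.9%, and genes of small RNA pathways at 76.6% and 61.2%. No sperm, oocyte or collagen gene of these lists passed by edgeR, with 0, 3 and 1 at an unadjusted p under 0.05, and 1 small RNA pathway gene passed as higher. alg-3 had 3 and 56 counts in the mutant and alg-4 had 9 and 33, neither of which passed. In CPM both mutant libraries lay below every WT spe. library for either gene, with replicate 1 the lower. The part of these genes in the result on the sperm protein genes was not tested.

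The comparison of the snpc-1.3(2xtbs) libraries with WT at oogenesis asks whether these small RNAs change when TRA-1 binding at the snpc-1.3 promoter is disturbed. One gene passed, ssp-35, which was higher, and no gene passed as lower by edgeR, DESeq2 or limma. Of the 55 genes, 51 had a positive and 4 a negative log2 fold change, and 8 of the 55 changed sign under another scaling and 5 with a library left out, ssp-35 not among them. The summed levels were 61.4 ± 21.6 CPM for msp against 45.9 ± 4.04 in WT oog., 13.7 ± 5.17 against 8.29 ± 1.09 for nspd, 10.2 ± 4.54 against 4.95 ± 0.414 for msd, 8.22 ± 2.36 against 5.26 ± 0.923 for ssq and 9.27 ± 0.995 against 12.0 ± 1.77 for ssp (SD, n = 3). The spread between the snpc-1.3(2xtbs) libraries was larger than in WT oog. for 4 of the 5 families, with ssp as the exception.

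The gene called was 1.82% of the 55 tested, where 6.98% of all features were called, 6.58% higher and 0.395% lower; of protein-coding genes and pseudogenes, 0.258% were called higher. At an unadjusted p under 0.05 there were 23, all higher. At that threshold 2291 of all 16968 features, and 163 of 6597 protein-coding genes and pseudogenes, were higher. The median log2 fold change was 1.01, against −0.05 over all features and −0.22 over protein-coding genes and pseudogenes. In CPM all 3 snpc-1.3(2xtbs) libraries lay above all WT oog. libraries for 9 of the 55, against 8.9% of all features, and the reverse held for 0 of the 55 and 22.3% of all features. The 22 tested genes of other sperm functions had 10 positive and 12 negative values (median −0.10), and none was called. Their summed level was 15.7 ± 2.11 CPM against 17.8 ± 3.93 in WT oog. Medians were 0.19 for oocyte genes and −0.25 for collagen genes, with summed levels of 37.5 against 57.8 and 42.5 against 63.1 CPM.

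ssp-35 had 20, 5 and 3 counts in snpc-1.3(2xtbs) oog. and 0, 1 and 1 in WT oog. The 3 libraries lay above those of WT, and pooled counts of 28 against 2 gave a ratio of 10.3 (95% counting interval 2.60 to 89.5) with an edgeR adjusted p of 0.038. msd-1 had 94, 36 and 18 counts against 15, 18 and 13, also without overlap in CPM, and did not pass (1.65, SE 0.53, adjusted p = 0.074). nspd-6 had 67, 32 and 16 counts against 10, 22 and 12 and did not pass (1.38, SE 0.50, adjusted p = 0.12). msp-53 had 108, 64 and 26 counts against 23, 47 and 34 (0.92, adjusted p = 0.30). ssp-16 had 24, 16 and 16 counts against 35, 34 and 15, with a negative value of −0.50 (adjusted p = 0.52). In msd-1, nspd-6 and msp-53 the replicate 1 library was the highest of the 3 in CPM.

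Over the 67 genes, replicate 1 of snpc-1.3(2xtbs) oog. lay above every WT oog. library for 51, replicate 2 for 38 and replicate 3 for 11. Replicate 3 lay below every WT oog. library for 20. Shares over all features were not computed for these single libraries, so the counts only describe how the libraries differ. Replicate 1 was also the library with the smallest share of counts on protein-coding genes, 1.45%, of which the sperm protein genes took 0.932%, against 0.324% and 0.145% in the other libraries of the group. Without replicate 1 or replicate 2 no gene passed, with 4 and 22 at an unadjusted p under 0.05, and without replicate 3 there were 33. Without WT oog. replicate 1 or 2 no gene passed either, with 21 and 20 at an unadjusted p under 0.05. The count was 0 with counts scaled to library totals or to miRNA totals and 24 with TMM computed on protein-coding genes and pseudogenes. These numbers too are given without the share of all features called in the same fit, and do not compare the genes with other features.

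The same loci were looked up in the chromatin measurements of the study. TRA-1 was measured in worms of the same age as WT oog., and SNPC-1.3 in worms of the same age as WT spe. According to the methods, these worms grew in liquid culture and were fed a different strain of Escherichia coli. The chromatin and small RNA libraries thus differ in growth conditions. A TRA-1 peak summit, called by the authors for each library, lay within 1 kb of the start of 11 of the 67 genes in both replicates of 3xflag::tra-1 (16.4%), against 34.9% of all protein-coding genes. In N2, which has no tag, 3 of the 67 had one (4.48%), against 19.7%. With 1, 2 or 3 mutated sites in the snpc-1.3 promoter the number was 12, 9 or 10 (17.9%, 13.4% and 14.9%). Of all protein-coding genes, 32.2%, 30.6% and 29.0% had one in these strains. Within 250 bases of the start none of the 67 had a peak in any of these strains, where 16.9% of protein-coding genes had one in 3xflag::tra-1 and 6.3% in N2. Within 2 kb there were 19 in 3xflag::tra-1 (28.4%, against 47.2% of protein-coding genes) and 9 in N2 (13.4%, against 31.4%). Reads with several genome places were filtered before peak calling, so a missing peak at a gene of many copies is not evidence of missing binding.

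In SNPC-1.3 ChIP-seq, the tables list the bins of 1 kb whose signal was above a background. Of the 65 bins that hold a start of one of the 67 genes, 22 and 23 were listed in the 2 libraries of snpc-1.3::3xflag, with median log2 ratios of IP to input of 0.30 and 0.31, against 0.10 and 0.12 over all listed bins. In N2, with no tag, 15 and 24 were listed, with medians of 0.19 and 0.23, against 0.10 and 0.11 over all listed bins. With SNPC-4 depleted, 12 and 26 were listed, with medians of 0.15 and 0.31, against 0.085 and 0.13. Over the whole genome, 33967 and 34884 bins were listed for snpc-1.3::3xflag, 43919 and 43546 for N2, and 45381 and 42768 with SNPC-4 depleted. The ranges of the untagged, tagged and depleted libraries lie close together or overlap, and only bins above a background enter these medians.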

How the data were processed

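Small RNA was measured in 11 libraries. According to the methods, the authors trimmed reads with Trimmomatic 0.39, aligned them to WBcel235 with Bowtie 1.1.1 allowing no mismatches and a limited number of best places, and counted them with featureCounts (Subread 1.6.3), multi-mapping and overlapping reads included. The deposited values are these raw counts, with no normalization. The authors' normalized table and the tables of their other workflow were not used. For TRA-1, the authors called peaks with MACS2 2.1.2 for each library, and the deposited −log10 q and fold enrichment (a ratio to background) are those it gave. For SNPC-1.3, the deposited bins give the authors' CPM of IP and input, with 1 added to the count, and the log2 ratio was computed from it. Genes within reach of a peak were those with a summit within 1 kb of their start in both replicates.

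Libraries were grouped by their labels. Counts of all 11 libraries were fitted in 1 model with edgeR 4.0.16 (R 4.3.3; glmQLFit, legacy method, filterByExpr over 4 groups, TMM, no block for the replicate number), and p-values were adjusted over all 16968 features kept. Sums, shares and levels in CPM use the library total on annotated features and have no test. TMM factors were 0.787 to 1.14 in WT spe., 0.635 and 0.642 in snpc-1.3(-) spe., 1.13 to 1.59 in WT oog. and 0.824 to 1.22 in snpc-1.3(2xtbs) oog., so fitted fold changes differ from ratios of CPM. Depth was 4336397 to 22346249 counts per library. Counting intervals are exact (Clopper-Pearson, 95%), and they and the floor of 3 counts cover counting error only, since reads carry no molecular identifiers. No libraries agreed within sampling noise (chi-square between replicates 5.47 to 118 per degree of freedom), so each was counted as 1 sample. Tested on simulated data with 200 changed features, the fit recovered 34%, 29% and 37% of them in the 3 comparisons (for 4-fold changes 61%, 54% and 65%), and called 2, 2 and 9 unchanged features. The alternatives were other scalings, DESeq2 1.42.0, limma 3.58.1 with voom, other filters, a replicate block, the 2 groups alone, and leaving out each library.

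The members and all gene lists were chosen with earlier results of these data known. Named genes are the 3 of each family with the highest mean CPM, every gene outside msp with a mean of at least 10 CPM, for each comparison up to 5 called genes per direction by smallest adjusted p, in other lists 2 per direction by the same measure between stages, and alg-3, alg-4 and csr-1. One gene that this rule names is not reported here. msd-4, ssp-9, ssp-10, ssq-1, msp-33, msp-45 and nspd-11 were named for their sequence, family or overlap after their values were seen, as were the genes that did not pass the filter. Protein sequences were not used here.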

Additional observations from a re-analysis of the deposited data

How the results depend on the processing

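Between WT stages, 16 of the 30 genes called were called under all 5 scalings and in every fit that left out a library. The number called was 16 with miRNA totals and 22 to 31 with a library left out. Here and below, numbers called under other settings are given without the share of all features called in the same fit. In all, 16 of the 55 tested genes, none of them called, turned negative under at least 1 scaling, to −0.66 at the farthest (msp-64). Among them, with miRNA totals the log2 fold change turned to −0.39 for msp-53, −0.40 for msp-55, −0.24 for msp-59, −0.025 for msp-74, −0.48 for msp-78, −0.17 for msp-79 and −0.081 for ssq-3, and with library totals to −0.0846 for msp-78. With a library left out, 4 turned (msp-64 to −0.50, msp-3, msp-58 and msp-53), and msp-53 ranged from −0.034 to 0.98. The log2 ratio of the summed CPM was 1.37, 0.97 with miRNA totals as the scale and 1.96 on the TMM scale, a scale added after seeing the data.

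For snpc-1.3(-) over WT spe., 5 genes were called, and 16 with DESeq2 size factors in edgeR, 21 with miRNA totals, 14 with TMM over protein-coding genes and pseudogenes, 21 with library totals, 17 with DESeq2, 12 with no filter, 2 with limma-voom, 8 with only the 2 groups, and 0 to 29 with a library left out. All 5 were called under all 5 scalings. None of the 55 turned under a scaling, and 9 turned positive with a library left out, msp-49 the farthest (0.77). Among them, nspd-4 ranged from −0.97 to 0.52, nspd-5 from −1.25 to 0.36, ssq-3 from −7.43 to 0.18, and ssp-35 from −2.51 to 0.53, and the log2 ratio of the summed CPM, −1.56 with both mutant libraries, ranged from −2.99 to −0.85.

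For snpc-1.3(2xtbs) over WT oog., 1 gene was called, 0 with miRNA totals (3 at an unadjusted p under 0.05), 0 with library totals (6), 0 with limma-voom (19), 0 with only the 2 groups (20), 2 with DESeq2, 9 with no filter, 24 with TMM over protein-coding genes and pseudogenes, and 0 to 33 with a library left out. Of the 55, 8 changed sign under a scaling and 5 with a library left out (msp-74 the farthest in both). Among them, ssp-11 turned to −0.18 with miRNA totals, and msp-74 to 0.32 and ssp-32 to 0.11 with TMM over protein-coding genes and pseudogenes. With a library left out, msp-74 ranged from −0.78 to 0.59 and ssp-32 from −0.40 to 0.43. On the added TMM scale the log2 ratio of summed CPM was 0.93 for all genes, where it was 0.43, and 0.10 for ssp, where it was negative. The cause of these changes was not tested.

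The replicate numbers are shared between groups but same-numbered libraries did not deviate together (correlations of −0.05, 0.03 and −0.03 between stages, 0.05 and 0.24 for the mutant, and −0.12, 0.08 and −0.28 for snpc-1.3(2xtbs)). With the replicate block the numbers called were 28, 9 and 1. With 0 to a few counts per library in many msp genes, and with groups of 2 or 3, small changes were not detectable at this depth.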
